A study of Arabidopsis thaliana with 8 samples.

Results

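AT4G29750 is a nuclear gene of Arabidopsis thaliana that encodes a protein with the CRM domain (chloroplast RNA splicing and ribosome maturation). It was followed here as 1 gene of the 646 named loci tested, through spot 2939, the only spot that the array's annotation assigns to this locus. It was chosen by its values on these same arrays, its mean level being lower in the tatA line than in WT, so that fall is described below and is not tested. Transcripts were measured on 8 single-colour arrays of 3439 spots each, hybridised with total RNA of plants of ecotype Columbia 0. The WT group has 4 arrays. The tatA group has 4 arrays of an antisense line of tatA, which the labels describe as defective in the twin-arginine translocation (TAT) pathway that carries folded proteins into or across the thylakoid membrane. The labels also call this line a mutant, and give no age, growth condition, tissue, number of plants, number of independent lines or promoter of the antisense construct. No label says whether the 4 arrays of a group came from separate plants, so every p-value below measures only the spread between these arrays, which may be technical.

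The CRM domain is an RNA-binding fold shared with a bacterial protein that associates with precursors of the large ribosomal subunit. In land plants it forms a family of nuclear-encoded proteins that enter chloroplasts or mitochondria. The best-studied members, CRS1, CAF1, CAF2, CFM2 and CFM3 of maize and Arabidopsis, bind group II introns of plastid transcripts and are needed for their splicing. Those introns interrupt plastid genes for photosynthetic complexes, the plastid ribosome and the plastid RNA polymerase, which is why the family is tied to the making of photosynthetic membranes. Which introns AT4G29750 itself may serve was not measured on these arrays.

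The transcript of AT4G29750 was bright in WT and several fold dimmer in every tatA array. Its deposited intensity, a linear value with an upper limit of 100, was 7.75, 8.07, 9.41 and 9.69 on WT arrays 1 to 4. On tatA arrays 1 to 4 it was 1.43, 1.55, 1.71 and 1.74. All 4 tatA values lay below all 4 WT values, with no overlap, and neither group held a value far from its others. The means were 8.73 ± 0.964 in WT and 1.61 ± 0.147 in tatA (SD, n = 4 arrays each), so that the tatA mean was 18.4% of the WT mean. The ratio of WT to tatA was 5.44 between the means. Over all 16 pairings of a WT with a tatA array it ran from 4.45 to 6.79, and for arrays of the same number it stayed between 5.22 and 5.56. The relative spread was alike in the groups, with a coefficient of variation of 11.0% in WT and 9.18% in tatA. In total RNA of plants, fewer cells that hold the transcript and less transcript per cell cannot be told apart.

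**Figure D1:**
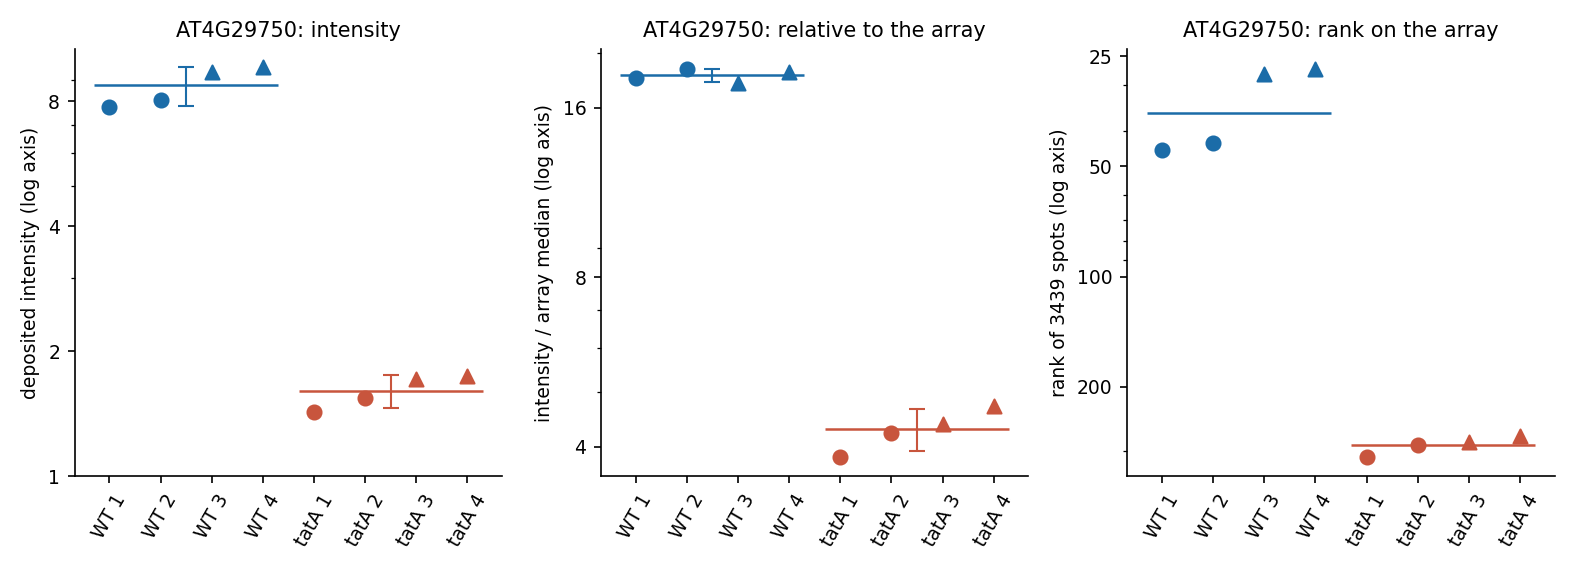
AT4G29750 on each of the 8 arrays: deposited intensity, intensity divided by the median of the array, and rank among all spots with the brightest at the top, each on a log axis (blue, WT; red, tatA; circles, replicates 1 and 2; triangles, replicates 3 and 4). Lines are group means and bars are SD over 4 arrays; the WT intensities of 7.75 to 9.69 lie above the tatA intensities of 1.43 to 1.74, and ranks go from 27 to 45 in WT to 273 to 311 in tatA.

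The rank of the spot on its own array does not depend on how the arrays were scaled, but brightness also depends on the probe, so a rank is no order of transcript abundance. Among 3439 spots AT4G29750 ranked 45, 43, 28 and 27 from the brightest on WT arrays 1 to 4. It ranked 311, 289, 284 and 273 on tatA arrays 1 to 4. In WT between 0.756% and 1.28% of spots were brighter, against 7.91% to 9.01% in tatA. Among the 690 spots assigned to a single matched locus it held place 9, 7, 6 and 6 on the WT arrays and 53, 43, 49 and 49 on the tatA arrays. The fall was thus also a fall in order within each array, with no overlap of the groups.

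The arrays also differed in level as a whole. The median intensity of an array was 0.429 to 0.531 in WT and 0.365 to 0.390 in tatA, and the tatA arrays had more spots at 0. AT4G29750 stood at 18.1, 18.8, 17.7 and 18.5 times the median of its array on WT arrays 1 to 4. On the tatA arrays it stood at 3.84, 4.24, 4.39 and 4.73 times the median. Taken relative to the array, the WT values drew together (18.3 ± 0.465, SD, n = 4 arrays), while the tatA values did not (4.30 ± 0.370). On the deposited scale the log2 change of AT4G29750 was -2.44 (SE 0.11). The median over all 3261 genes or unnamed spots tested was -0.47, and relative to that median AT4G29750 stood at -1.97. Whether the median reflects scaling or transcript levels was not tested.

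The size of the fall moved with the scaling, and its direction did not. After quantile normalization, which gives all arrays the same distribution and is the main setting here, the log2 change was -2.29 (SE 0.11), a 4.89-fold lower value. With median centring it was -2.09 (SE 0.10) and with scaling to the 75th percentile -2.04 (SE 0.092), or 4.25-fold and 4.12-fold lower. Between the largest and the smallest of these 4 values the fold went from 5.43 to 4.12. The spread within groups on the log2 scale was smallest with 75th percentile scaling (SD 0.089) and median centring (0.094), against 0.15 on the deposited scale and 0.17 after quantile normalization.

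**Figure D2:**
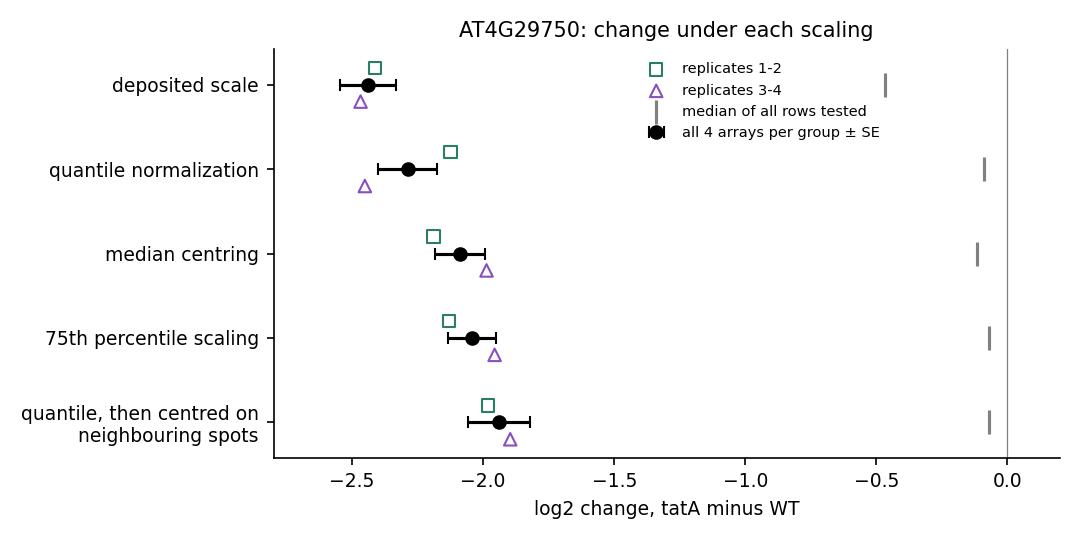
Log2 change of AT4G29750, tatA minus WT, under 5 settings: black points with SE bars use all 4 arrays per group, squares replicates 1-2 and triangles replicates 3-4; grey ticks mark the median over all rows tested. All values lie between -2.47 and -1.90, and the order of squares and triangles changes with the setting.

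Few named loci fell further, and nearly all that did were dim. After quantile normalization 10 named loci had a lower log2 change than AT4G29750, and 8 of these were listed at 0 on at least 1 array, so that their values rest on how zeros are treated. The other 2 were AT4G31530 and AT2G21960, the latter named after its value was seen. Without normalization 19 named loci had a lower value, 18 of them with a 0. None of these 19 had a WT mean above 0.487, against 8.73 for AT4G29750. There were 31 genes or unnamed spots at least as bright in WT as AT4G29750, itself included. After quantile normalization 19 of them were lower in tatA and 12 were not, and only AT4G31530 fell further than AT4G29750. The 12 include unnamed spots with a WT mean at the upper limit of 100, which did not change. Without quantile normalization AT4G29750 had the largest fall of these 31, followed by spot 1711, which has no single gene name, and AT4G31530. The deposited, median-centred and 75th percentile scales differ only by a shift of each whole array, so they give the same order of falls. Over the 31 bright rows the median log2 change after quantile normalization was -0.43, against -0.091 over all rows. The order was the other way on the deposited scale, at -0.40 over the bright rows against -0.47 over all rows. It was so too with median centring (-0.046 against -0.12) and 75th percentile scaling (-0.00091 against -0.071). The 31 rows were picked by their WT level, so the count of 19 is not read as a result. By the limma test, another measure, 32.2% of all rows differed between the groups (adjusted p under 0.05), with 16.9% lower and 15.4% higher in tatA. In deposited intensity the groups did not overlap for 43.0% of rows, and for 33.7% with tatA below WT.

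**Figure D3:**
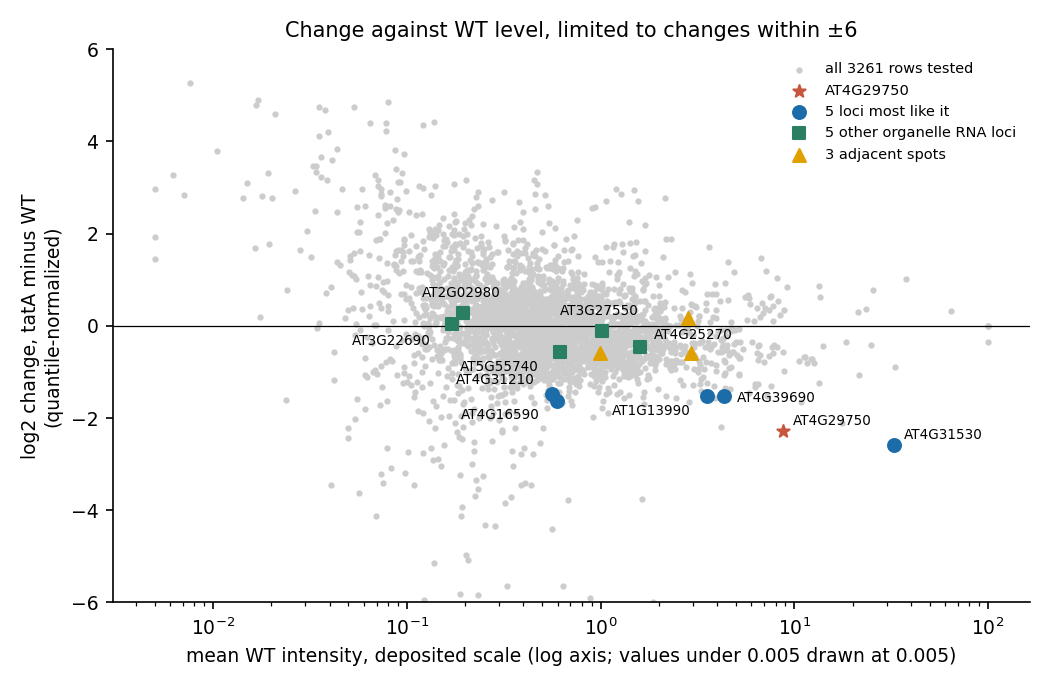
Log2 change after quantile normalization, tatA minus WT, against mean WT intensity on a log axis for all 3261 rows (grey; 17 rows beyond a change of 6 are not drawn), with AT4G29750 as a star, the 5 loci of closest profile as circles, 5 other loci of organelle RNA processing as squares and 3 adjacent spots as triangles. AT4G29750 and AT4G31530 lie at the bright end with changes of -2.29 and -2.58, while the 5 RNA-processing loci lie between -0.57 and 0.27.

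Within each group, arrays 1 and 2 resembled each other, as did arrays 3 and 4. Across rows on the log2 scale, arrays of such a pair correlated at 0.778 to 0.879, and other arrays of a group at 0.715 to 0.770; no label says what the pairs are. For AT4G29750 the pairs were close. WT array 2 was 1.04 times array 1 and WT array 4 was 1.03 times array 3, while tatA array 2 was 1.08 times array 1 and tatA array 4 was 1.02 times array 3. Between the pairs the gap was wider: replicates 3-4 were 1.21 times replicates 1-2 in WT and 1.16 times in tatA. The array medians went with this in WT, where they were 1.23 times higher in replicates 3-4, and less so in tatA, where they were 1.03 times higher. The gap between pairs was small beside the gap between the groups.

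Whether the fall differed between the pairs is a contrast apart from the fall itself, though it is taken from the same 8 values. On the deposited scale the log2 change was -2.41 in replicates 1-2 and -2.47 in replicates 3-4, and their difference was -0.055 (SE 0.084, limma interaction of group and pair, adjusted p = 0.712). After quantile normalization the changes were -2.13 and -2.45, with a difference of -0.33 (SE 0.073) that passed (limma adjusted p = 0.0326). With median centring the order turned, at -2.19 and -1.99, with a difference of 0.20 (limma adjusted p = 0.240). It turned also with 75th percentile scaling, with a difference of 0.17 (adjusted p = 0.267). The interaction passed for 11.7% of all rows after quantile normalization and for 15.9% on the deposited scale. Without WT array 1, 2 or 4 or tatA array 2, 3 or 4 the quantile-normalized difference did not pass (adjusted p from 0.0614 to 0.0954). No difference between the pairs held across these scalings.

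The spots with numbers next to that of AT4G29750 were read beside it, and the part of position on the array in the fall was not tested. Spot 2941, without a gene name, had intensities of 2.54, 2.70, 2.997 and 3.45 in WT and 1.45, 1.52, 1.58 and 1.55 in tatA. Its groups did not overlap, and it fell by 0.59 on the log2 scale after quantile normalization (limma adjusted p = 0.00281, and 0.0162 in the fit that treats replicate pairs as a random block). Spot 2938, which the annotation assigns to 2 genes, fell by 0.59 as well (limma adjusted p = 0.0163), but not in the paired-block fit (0.0669). Spot 2937 had a log2 value of 0.17 (limma adjusted p = 0.492) and overlapping groups. Of the 20 nearest spots, 10 on each side, 11 were lower and 9 higher in tatA after quantile normalization. Of these, 4 passed as lower and 2 as higher, where 16.9% and 15.4% of all rows did. The 20 had a median of -0.14 and a range from -1.89 to 0.89. Centred on the median of these 20 neighbours on each array, AT4G29750 had a log2 change of -1.94 (SE 0.12).

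The loci whose profile over the 8 arrays lay closest to that of AT4G29750 were found by the root mean square difference between log2 values centred on each locus's own mean, after quantile normalization. Since AT4G29750 was chosen for its fall, these loci share that fall by construction, and their changes are given without a test. The closest was AT4G31530, a gene for an NAD(P)-binding protein, at a difference of 0.29 log2 units. Its intensity was 27.9, 29.8, 37.3 and 35.4 in WT and 6.23, 6.56, 7.52 and 7.82 in tatA, with no overlap. Like AT4G29750 it was higher in replicates 3-4 than in replicates 1-2 of both groups. The array medians and spots 2937, 2938 and 2941 were so too, and this rise is not particular to AT4G31530. On the deposited scale, where its log2 change was -2.21, the difference between the profiles was 0.12.

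AT1G13990 followed at 0.42, where the WT mean was 3.56 ± 0.236 and the tatA mean 0.962 ± 0.114 (SD, n = 4 arrays). Its log2 change was -1.52. AT4G39690, which encodes MIC60, a protein that shapes the inner membrane of mitochondria, came next at 0.43. It went from 4.34 ± 0.329 to 1.26 ± 0.304 (SD, n = 4 arrays), and its log2 change was also -1.52. CSLA01 (AT4G16590), of the mannan synthase family, and AT4G31210, a type IA DNA topoisomerase, both lay at 0.50. CSLA01 went from 0.596 ± 0.0986 to 0.158 ± 0.0694 and AT4G31210 from 0.560 ± 0.276 to 0.144 ± 0.0267 (SD, n = 4 arrays). The next locus, AT3G26740, lay at 0.51, so the end of this list is not a sharp edge. Of the 5 loci, 4 were also among the closest 5 without quantile normalization, where AT2G11270 took the place of AT4G31210.

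**Figure D4:**
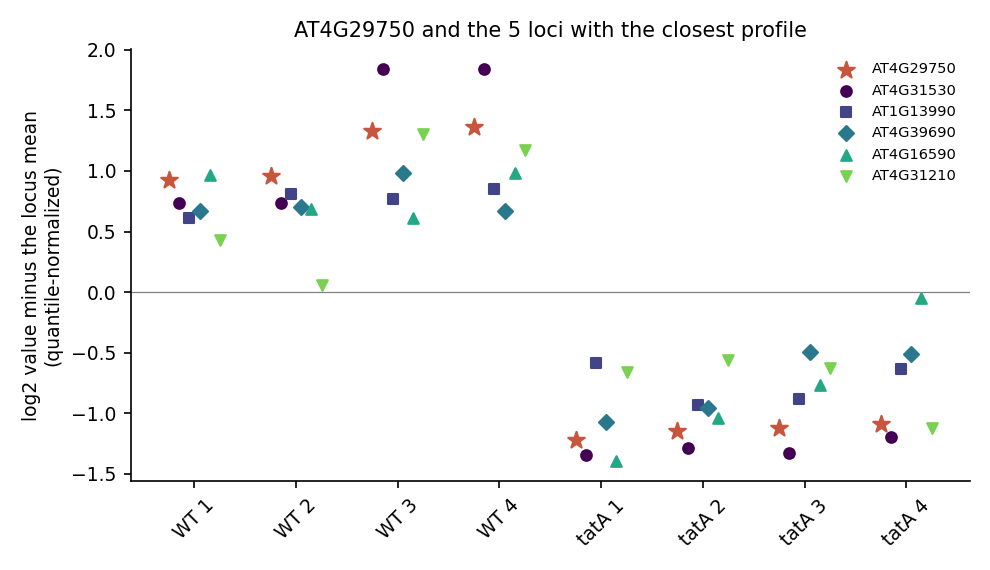
Log2 values after quantile normalization, each minus the mean of its locus over 8 arrays, for AT4G29750 (star) and the 5 loci of closest profile, shown side by side for each array. All 6 loci lie above their mean on the 4 WT arrays and below it on the 4 tatA arrays, and AT4G31530 lies closest to AT4G29750 with a root mean square difference of 0.29.

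The 3 largest falls among named loci that passed, AT4G29750 aside, were AT4G31530 (-2.58), AT1G11820 (-1.81) and AT4G12740 (-1.71), related to MutY, a glycosylase of DNA repair. AT1G11820 was dim, with a WT mean of 0.222 ± 0.0875 (SD, n = 4 arrays), and had log2 changes of -1.05 in replicates 1-2 and -2.58 in replicates 3-4. In the same pairs AT4G12740 had changes of -0.86 and -2.55, AT4G31530 of -2.05 and -3.11, and AT4G29750 of -2.13 and -2.45. All these values are after quantile normalization, and the pairs of the 3 other loci were not compared on another scale. For AT4G31530 the normalized values were 0.737 above the locus mean on both WT arrays 1 and 2, and 1.84 on both WT arrays 3 and 4. Its WT intensities were 27.9 and 29.8, then 37.3 and 35.4, so its gap between pairs is given for this scaling only. The loci were not tested against each other.

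The other genes of organelle RNA processing could be read only in small part. Of the other 15 members of the CRM family only AT3G27550 had a spot of its own. Its intensity was 0.647, 0.736, 1.204 and 1.47 on WT arrays 1 to 4, and 0.612, 0.887, 0.629 and 0.641 on tatA arrays 1 to 4, so that the groups overlapped. Its log2 value was -0.12 (SE 0.22, limma adjusted p = 0.707), with 0.35 in replicates 1-2 and -0.59 in replicates 3-4. CRS1, CAF1, CAF2, CFM2 and both CFM3 genes are not analysed here, and neither are the plastid genes with group II introns, for which no member of a list of 16 loci had a spot.

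Of 27 other splicing factors of chloroplasts and mitochondria, 1 was tested. OTP70 (AT4G25270), a pentatricopeptide protein needed to splice the intron of the plastid RNA polymerase gene rpoC1, was at 1.28, 1.51, 1.79 and 1.79 on the WT arrays and at 0.870, 1.01, 0.932 and 0.755 on the tatA arrays. The groups did not overlap. OTP70 fell by 0.46 in log2 units after quantile normalization (SE 0.12, limma adjusted p = 0.0207). The call was lost in the paired-block fit (limma adjusted p = 0.102), in which 7.54% of all rows passed as lower, and also without WT array 3 (0.0563) or WT array 4 (0.0556). Centred on neighbouring spots its value was 0.10 (adjusted p = 0.473).

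Of 35 genes for editing, stability and processing of plastid RNA, 3 were tested and 0 passed (limma, 0 also at an unadjusted p under 0.05). CRR21 (AT5G55740), an editing factor of the plastid ndhD transcript, had a mean of 0.616 ± 0.157 in WT against 0.321 ± 0.0700 in tatA (SD, n = 4 arrays), and its groups did not overlap. Its log2 value was -0.57 (SE 0.27, limma adjusted p = 0.143), and it passed on the deposited scale at -0.93 (adjusted p = 0.0130). CRR21 had a value of -1.21 in replicates 1-2 and of 0.081 in replicates 3-4. OTP85 (AT2G02980), also an editing factor of ndhD, had a log2 value of 0.27 (limma adjusted p = 0.458). AT3G22690 (YS1), an editing factor of the RNA polymerase transcript rpoB, had one of 0.037 (limma adjusted p = 0.938). Both values were negative on the deposited scale, at -0.066 and -0.32. In all, 1 of 5 tested loci of these lists passed as lower and 0 as higher, and 0 passed in the paired-block fit, where that 1 call had an adjusted p of 0.102. Their median log2 value was -0.12, against -0.091 over all rows, and the share of all rows that passed as lower was 16.9%.

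The labelled material could be checked against tissue markers only in passing. Of 26 markers of leaf, root, pollen and seed, 1 was tested, the light-harvesting gene LHB1B2 (AT2G34420). It was bright on all arrays, with intensities of 5.56 to 8.33 in WT and 7.29 to 8.97 in tatA, and had a log2 value of 0.39 (limma adjusted p = 0.0615). It passed with a fixed block for the replicate number (limma adjusted p = 0.0298). With median centring it passed at 0.69 (limma adjusted p = 0.0201) and with 75th percentile scaling at 0.73 (0.0134). It passed neither on the deposited scale (limma adjusted p = 0.0707), in the paired-block fit (0.295), with pairs averaged (0.171) nor centred on neighbouring spots (0.246). TATA was not among the spots named here, so no value of the targeted transcript stands beside these comparisons. The neighbours of AT4G29750 among protein-coding genes of the chromosome, AT4G29740 and AT4G29760, had no spot of their own, and no other locus of the RefSeq annotation overlaps it.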

How the data were processed

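The authors deposited 1 linear intensity per spot and array; spot reading, background subtraction and scaling are not given in the sources used here. Groups and replicate numbers come from the sample titles. Of 3439 spots, 177 at 0 on more than 4 of 8 arrays were left out. On 240 of the rest, zeros took the lowest positive value of the array before log2 and quantile normalization. Spots were named through the platform annotation, which gives 1 gene for 692 spots, several for 870 and none for 1877; 690 of the 692 matched a locus of the TAIR10.1 RefSeq table, used for names and neighbours only. A locus with 2 spots was averaged, which left 3261 rows. No sequences are printed, and no coordinates, since the sources name no genome build for it.

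The group test was limma 3.58.1 (R 4.3.3, lmFit and trended eBayes, two-sided), with Benjamini-Hochberg adjustment over all rows and a threshold of 0.05. It was first run on simulated data. The simulated arrays were independent of each other, so that run does not cover the likeness between arrays of a pair or of the same number. The pairs' difference was the interaction of group and pair in the same kind of fit. Named were AT4G29750, the 5 closest profiles, the 3 largest falls that passed, tested list members (all where 6 or fewer) and spots within 2 numbers. The gene, lists, tests and alternatives were chosen with earlier results of these data known. Figures used matplotlib 3.10.9 in Python 3.11.15.

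Residuals of a WT array and of the tatA array with its number correlated across rows at 0.269 to 0.340, over the limit of 0.1, so the number was taken as a block in an alternative fit. Arrays of another number in the same pair correlated at 0.036 to 0.13, and arrays of the other pair at -0.25 to -0.15. Precision is limited by having 4 arrays per group. In the fit with pairs as a random block, arrays of a pair within a group had a correlation of 0.548. The main fit treats all arrays of a group as independent.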

Additional observations from a re-analysis of the deposited data

Results flagged for a closer look

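AT3G27550, the other member of the CRM family with a spot, had an intensity of 0.887 on tatA array 2, far from the other 3 tatA arrays, which lay between 0.612 and 0.641. This was the 1 such value in 34 groups of 4 arrays examined, where chance gives about 1 in 20; the groups of AT4G29750 held none.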

How the results depend on the processing

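Of 17 alternatives other than leaving out 1 array, 8 concern the variance, the block or other rows and leave the log2 change of AT4G29750 at its value by construction. In the other 9 it ran from -2.44 to -1.94. It moved by more than the spread between arrays with median centring (-2.09), 75th percentile scaling (-2.04) and centring on neighbouring spots (-1.94), and lay between -2.38 and -2.23 when 1 array was left out. Its place among the falls of named loci was 11, and became 20 on the deposited scale and under both median and 75th percentile scaling, 15 with neighbouring spots, 3 with zeros left out and 2 with an offset of 0.118. Other filters changed the set of named loci: with no filter on zeros AT4G29750 was at place 24 of 689. With the dimmest 25% of rows left out AT4G29750 was at place 4 of 472, and with the dimmest 50% left out at 2 of 304. Of the loci ahead of it, 8 of 10 in the main setting and 18 of 19 on the deposited scale had a 0. The difference between pairs passed at -0.33 but was -0.055 on the deposited scale, 0.20 with median centring, 0.17 with 75th percentile scaling and 0.085 with neighbouring spots; at -0.33 it did not pass without the trend (limma adjusted p = 0.198) or with robust variance (0.0722), and ran from -0.36 to -0.28 without 1 array.

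Of 3261 rows, 1051 passed, 537 in the fit with pairs as a random block, 64 with pairs averaged, and 790 to 958 without 1 array. With the replicate number as a block 1041 passed, and no call on the 5 RNA-processing loci changed. Of these 5, 1 passed in the main setting, AT4G25270. On the deposited scale and in replicates 3-4 alone 2 passed, with pairs as a random block or averaged 0, and without 1 array 0 to 1. The loci that passed differed between the pairs. In replicates 1-2 alone AT5G55740 passed (-1.21, limma adjusted p = 0.0085) and AT4G25270 did not (0.164). In replicates 3-4 alone AT4G25270 (limma adjusted p = 0.0127) and AT3G27550 (-0.58, 0.0272) passed. Signs turned for AT3G27550 in replicates 1-2 alone (0.36; -0.26 to 0.048 without 1 array), for AT4G25270 with neighbouring spots (0.10), for AT5G55740 in replicates 3-4 alone (0.078), and for AT2G02980 on the deposited scale (-0.066) and with neighbouring spots (-0.27). For AT3G22690 they turned on the deposited scale (-0.32), with zeros left out (-0.018), with neighbouring spots (-0.63), in replicates 3-4 alone (-0.20), and without 1 array (-0.11 to 0.18). The cause of these changes was not tested.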
